A study of Mus musculus with 3 samples.

Results

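The genes described here encode proteins that act downstream of the small GTPases CDC42 and Rac to build actin filaments. They were chosen by name and role, with earlier results of these data known. The 47 listed names stood for 46 genes, because Diap1 is an older name of Diaph1. All 46 had a probe, 71 probes in all, out of 20284 genes named on the arrays. For 45 of the 46 a probe was well above background on all 3 arrays, as was the case for 13626 of the 20284 genes. Fmnl1 was the exception and gave only bounds.

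CDC42 and Rac are molecular switches that, when bound to GTP, recruit effector proteins at the cell membrane. CDC42 opens WASP and N-WASP, Rac opens the WAVE complex, and both lead to the Arp2/3 complex, which starts new filaments as branches on old ones. Formins grow unbranched filaments, and PAK kinases act through LIM kinases to hold back cofilin, which takes filaments apart. In liver these proteins serve the cortex and bile canaliculi of hepatocytes as well as the crawling and engulfing movements of macrophages and other blood cells.

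Gene expression was measured on 3 one-colour arrays, each with RNA of whole liver from c57BL6/J mice taken 2 days after hydrodynamic gene delivery, a rapid tail vein injection that carries plasmid into hepatocytes. Human YAP, the coactivator restrained by the Hippo pathway, was delivered in its wild-type form (WT) or in a mutated form, 1SA or 2SA, and the study describes both mutants as active. With 1 array for each form, the spread between animals is unknown and no test was made. The labels give no age and do not say whether an array held 1 animal or a pool. The methods state that mainly young adult males were used and that the plasmid's AFP enhancer and albumin promoter limit expression to hepatocytes. The study describes the delivery as reaching only some of the hepatocytes. The title of the WT sample carries a number 2 and those of the mutants carry none. A liver without human YAP was not analysed here, so delivery, vector and transgene were common to all 3.

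An intensity is the processed brightness of a spot on a linear scale. A difference is between log2 intensities after each array was scaled to its 75th percentile, an intensity of 291 in WT, 276 in 1SA and 319 in 2SA. Repeated spots of 1 probe had a median SD of 0.07 (log2) on each array, which gives a difference an SD of 0.10, and differences up to 0.20 lay within the error between spots. This error does not cover the spread between animals, and the number of arrays limits the precision. The 9 hepatocyte marker genes were measured on every array, with medians of 0.13 in 1SA and -0.19 in 2SA against WT. Whole liver was used, so fewer cells of a type and less RNA per cell cannot be told apart.

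Members passed 1.5-fold about as often as other genes. Of the 45 measured genes, 38 stayed under 1.5-fold in every comparison and 7 (15.6%) reached it in at least 1, against 16.5% of all measured genes. In 1SA against WT, 2 members were higher by 1.5-fold or more, Diaph3 and Iqgap3 (4.44% of members, 3.08% of all genes), and 2 were lower, Cdc42ep3 and Nckap1l (4.44%, against 4.67%). In 2SA against WT, 3 were higher, Cyfip2, Diaph3 and Iqgap3 (6.67%, against 3.79%), and 0 were lower (3.02% of all genes). In 2SA against 1SA, 4 were higher, Cyfip2, Iqgap1, Nckap1l and Was (8.89%, against 6.99%), and 0 were lower (4.56% of all genes). These shares of members lie near those of all genes.

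At 2-fold, 0 members were higher in 1SA than in WT (0.727% of all genes) and 0 were lower (1.14%). Among the 45 measured on all arrays, Iqgap3 was 2-fold higher in 2SA than in WT (1.12% of all genes) and 0 were lower (0.543%). Cyfip2 was 2-fold higher in 2SA than in 1SA (2.47%), and 0 were lower (1.12%). Fmnl1, read as a bound, is given apart. The median difference over members was -0.05 in 1SA against WT, -0.0037 in 2SA against WT and 0.05 in 2SA against 1SA. Over all 13626 genes it was -0.00167, -0.03 and -0.03 in the same order. Within the error between spots lay 29 of 45 members in 1SA (64.4%, all genes 64.5%) and 35 of 45 in 2SA against WT (77.8%, all genes 64.7%). Between the mutants 20 of 45 did (44.4%, all genes 54.1%).

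**Figure D1:**
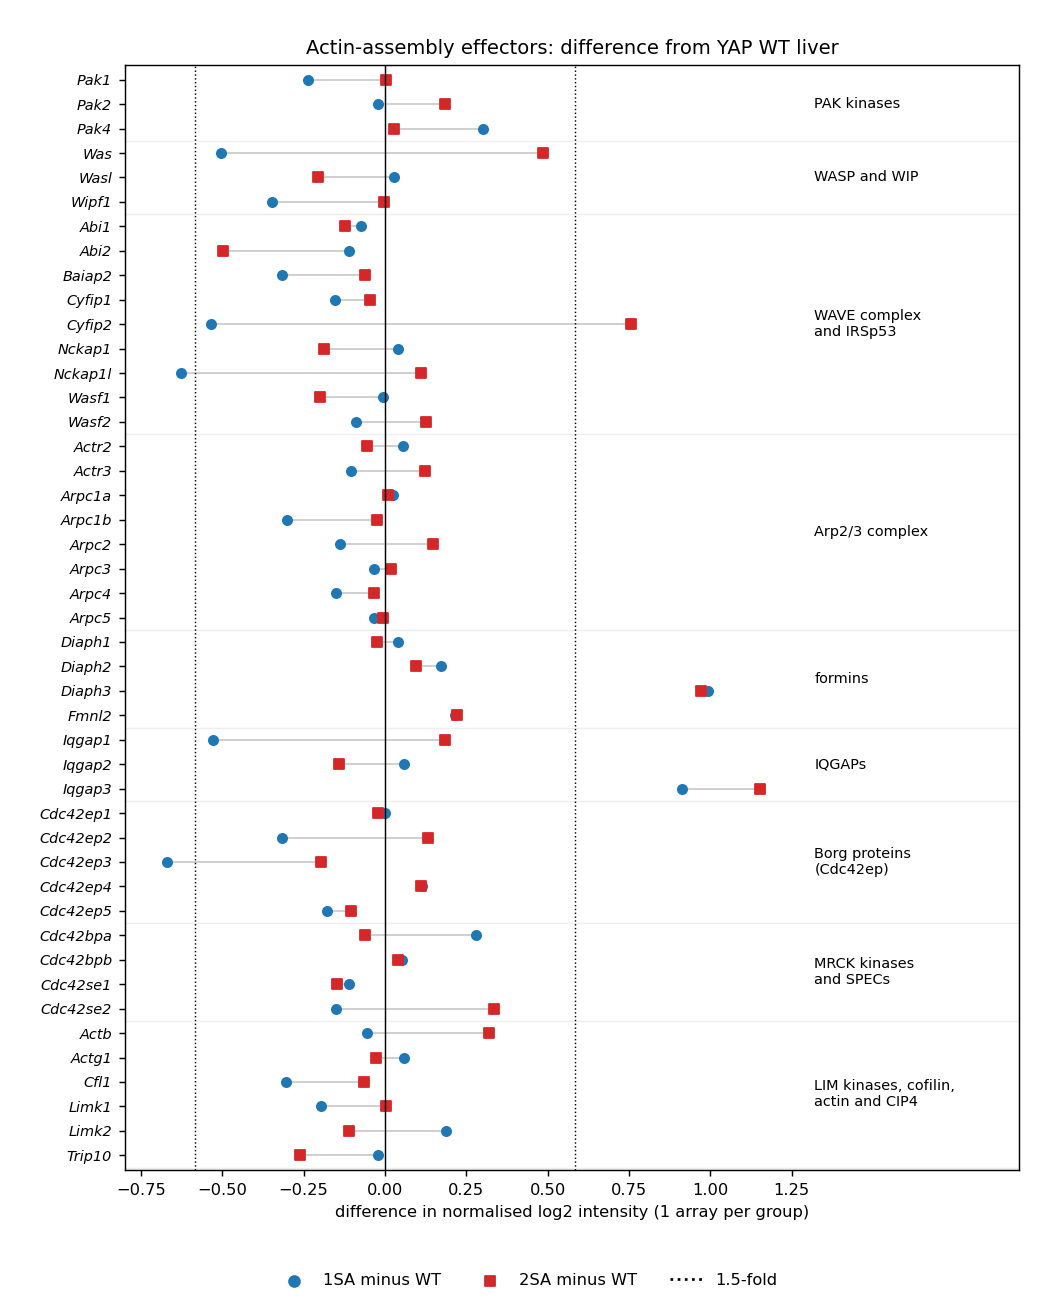
Difference from WT in normalised log2 intensity (horizontal axis) for the 45 measured members, grouped by role (vertical axis), with 1SA as blue circles, 2SA as red squares, 1 array per group and dotted lines at 1.5-fold. Most symbols sit between the dotted lines, Iqgap3 and Diaph3 stand to the right in both mutants, and Cyfip2 and Was lie on opposite sides of WT.

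The Arp2/3 complex, the branching machine itself, had the smallest SD of differences from WT of the 9 role groups, 0.11 in 1SA and 0.07 in 2SA. Its subunits Actr2 and Actr3 resemble actin, and Arpc1a and Arpc1b are alternative forms of 1 subunit, which gave 8 genes here. The 8 differences had a median of -0.07 in 1SA against WT and 0.0021 in 2SA against WT, and 0 of the 8 reached 1.5-fold in any comparison. Against WT the lowest was Arpc1b in 1SA (-0.30) and the highest Arpc2 in 2SA (0.15). All 8 lay within the error between spots in 2SA against WT, and 7 of 8 did in 1SA. Arpc2, a subunit that holds the branch to the mother filament, had intensities of 21272 in WT, 18340 in 1SA and 25903 in 2SA. After scaling it was lower in 1SA by a log2 difference of -0.14 and higher in 2SA by 0.15, each within the error between spots.

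The WASP and WAVE proteins switch the Arp2/3 complex on, and here the genes of 1 family parted. Wasl encodes N-WASP, the form made in most tissues. Its intensity was 1005 in WT, 971 in 1SA and 958 in 2SA, a log2 difference from WT of 0.03 and -0.21. Was encodes WASP, the form of blood cells whose loss causes Wiskott-Aldrich syndrome. Its intensity was 262 in WT, 175 in 1SA and 403 in 2SA. Was was thus lowest in 1SA and highest in 2SA, with log2 differences from WT of -0.50 and 0.49 and a gap between the mutants of 0.99. After normexp, a background correction that pulls dim probes together, they were -0.29, 0.43 and 0.71. Wipf1, whose protein WIP binds and steadies WASP, was at -0.35 in 1SA and -0.0037 in 2SA.

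The WAVE complex has a catch made of a CYFIP and a NAP subunit, and each comes in alternative forms. Nckap1 encodes NAP1, found widely, and measured 1174 in WT, 1144 in 1SA and 1132 in 2SA. Nckap1l encodes HEM1, the blood cell form, and measured 575 in WT, 353 in 1SA and 682 in 2SA. Nckap1l was lower in 1SA by a log2 difference of -0.63 and close to WT in 2SA at 0.11, whereas Nckap1 stayed at 0.04 and -0.19. The Nckap1l probe was printed many times, with 9, 9 and 8 usable spots in WT, 1SA and 2SA and an SD between spots of 0.04, 0.06 and 0.04. Its spread between spots was therefore small beside the difference of -0.63.

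Cyfip1 and Cyfip2 encode the subunits that bind active Rac. Cyfip1, widely made, measured 2205 in WT, 1878 in 1SA and 2345 in 2SA, with log2 differences from WT of -0.15 and -0.05. Cyfip2, known from brain and lymphocytes, measured 53.0 in WT, 34.7 in 1SA and 98.3 in 2SA. It was lower than WT in 1SA (-0.54) and higher in 2SA (0.76), and the gap of 1.29 between the mutants was the widest among the 45 members measured on all arrays. The signal of Cyfip2 was low, and after normexp correction the values were -0.21, 0.42 and 0.64. The other 5 genes of the group, Wasf1 and Wasf2 (WAVE proteins), Abi1 and Abi2 (their adaptors) and Baiap2 (IRSp53, which bends membrane for Rac), lay between -0.50 and 0.13 against WT. The lowest of these values was Abi2 in 2SA.

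Fmnl1 encodes a formin of macrophages and lymphocytes. Its intensity was 13.2 in WT, 8.82 in 1SA and 29.1 in 2SA, and only the 2SA value was well above background. The bound was 2.00-fold for 2SA over WT and 2.45-fold for 2SA over 1SA. The bound over WT is the plain ratio of the scaled values. Neither bound allows for the error between spots, and the gene counted as measured in 2SA alone. Its relative Fmnl2 had a brightest probe of 48.0, 52.8 and 61.4, with differences from WT of 0.22 in both mutants. Arpc1b, which blood cells make in quantity, gave -0.30 and -0.02, against 0.03 and 0.01 for Arpc1a.

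Rac2, the blood cell form of Rac and not a member of the set, followed the same order as Was. It measured 860 in WT, 550 in 1SA and 1074 in 2SA, which gave -0.57 and 0.19, while Rac1, made in all cells, gave -0.07 and 0.12. The pairing of blood cell and broad forms was made after the values were seen and is a description.

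**Figure D2:**
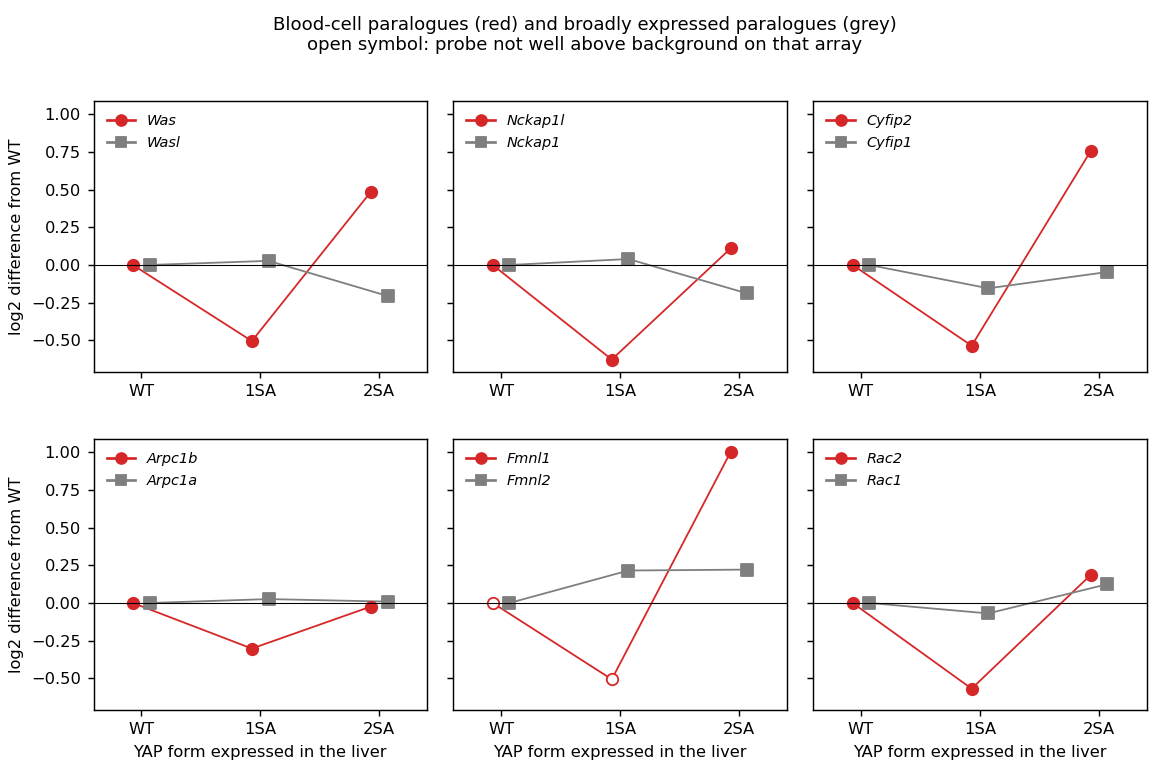
Log2 difference from WT (vertical axis) on the 3 arrays (horizontal axis) for 6 pairs of related genes, the form known from blood cells in red circles and the broad form in grey squares, with open symbols where a probe was not well above background. The red line dips in 1SA in the 5 panels whose genes were measured on all arrays, the Fmnl1 values in WT and 1SA being below that mark, and the grey lines stay between -0.21 and 0.22.

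General markers of blood cells, like the blood cell forms measured on all arrays, were lower in 1SA. In 2SA, Was and Cyfip2 were higher than WT. Nckap1l (0.11), Rac2 (0.19) and Arpc1b (-0.02) lay within the error between spots there. All 8 genes of a pan-leukocyte list, which holds Ptprc (CD45) and Itgb2 (CD18), were measured on every array. All 8 were lower in 1SA than in WT, with differences of -0.83 to -0.47 and a median of -0.75, and all 8 were higher in 2SA, with 0.12 to 0.53 and a median of 0.36. Their summed scaled intensity was 79.6 in WT, 49.7 in 1SA and 97.5 in 2SA. Ptprc measured 233 in WT, 145 in 1SA and 369 in 2SA. These directions held for every measured gene of the list under each alternative processing tried, of which the stricter filter on dim probes kept 6.

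Low values in 1SA were not particular to blood cell lists. Bile duct markers had a median of -0.73 there, which normexp correction brought nearer to WT. Finer lists of blood cell types did not all share the order of the pan-leukocyte genes. Markers of Kupffer cells, the resident macrophages of liver sinusoids, had medians of -0.15 in 1SA and -0.84 in 2SA. In 1SA these markers went both ways, from -1.21 for Marco to 0.45 for Clec4f. In 2SA 8 of 9 were lower than in WT, with C6 the exception at 0.12. Of those 8, Adgre1 (-0.16) and Csf1r (-0.0057) lay within the error between spots. Markers of monocytes and infiltrating macrophages had medians of -0.81 and -0.02 over the 7 of 9 measured on all arrays, which leaves out Ly6c2 and Cd68. They went both ways: 6 of 7 were lower in 1SA, with Ccr2 the exception at 2.33, and in 2SA Chil3 (1.24), Cx3cr1 (1.20) and Ccr2 (0.85) were higher while the other 4 were lower. Neutrophil markers (5 of 8 measured) had medians of -0.05 and 0.00016, and those of T, NK and B cells (6 of 10) 0.02 and -0.02. The neutrophil medians are the values of Csf3r, which measured 36349 in WT, against 140 for S100a8. Both lists went both ways. In 2SA the neutrophil genes ran from -0.66 for Retnlg to 0.44 for S100a8. Those of T, NK and B cells ran there from -0.44 for Cd4 to 0.58 for Cd3d. The part of blood cells in the values of Was, Nckap1l, Cyfip2 and Fmnl1 was not tested.

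Over all 6 possible orders of the 3 arrays, 14 of the 45 members (31.1%) ran from lowest in 1SA through WT to highest in 2SA, as did 20.0% of all genes. The promoters of Was and Fmnl1 are shown because each holds a motif of ETS family factors such as PU.1, which act in blood cells. Among members with a promoter entry, Was alone held ACAGGAAGT and Fmnl1 alone held GAGGAAGT. Arpc1b, which also has an entry, held neither. The sequences are 150 bases before the gene's start, read 5′ to 3′ on the gene's strand, from RefSeq on GRCm38.p6. Capitals mark the reverse complement of ACAGGAAGT in Was (positions -24 to -16 from the start) and of GAGGAAGT in Fmnl1 (positions -50 to -43). The Was window is chrX:8090492-8090641 on the minus strand and the Fmnl1 window chr11:103170988-103171137 on the plus strand.
Was: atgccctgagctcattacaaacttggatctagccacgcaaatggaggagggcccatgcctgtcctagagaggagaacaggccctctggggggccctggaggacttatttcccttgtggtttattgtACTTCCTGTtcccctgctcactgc
Fmnl1: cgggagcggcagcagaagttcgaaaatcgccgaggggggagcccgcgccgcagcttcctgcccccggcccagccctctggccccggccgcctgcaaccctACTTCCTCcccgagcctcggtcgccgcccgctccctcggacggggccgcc

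Searched on both strands over 250 bases before the start, ACAGGAAGT stood in 0.944% of 27025 promoters and in 1 of the 39 members with an entry, and GAGGAAGT in 2.79% and in 1 of 39. The related ETS motif ACCGGAAGT stood in 0.892% and in 2 of 39, Actr3 and Arpc3. These motifs share the letters GGAAGT. A match is a stretch of letters and does not show that a factor binds.

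The IQGAPs are large scaffolds that bind active CDC42 and Rac and tie them to actin, and the 3 genes went 3 ways. Iqgap2, the form typical of hepatocytes, measured 485 in WT, 480 in 1SA and 483 in 2SA, with differences from WT of 0.06 and -0.14. Iqgap1, the broad form, measured 635 in WT, 418 in 1SA and 792 in 2SA. Iqgap1 was lower in 1SA by -0.53, and its difference of 0.18 in 2SA lay within the error between spots. The signs were those of the pan-leukocyte genes, and the gap between the mutants was 0.71.

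Iqgap3, which is known from dividing cells, measured 74.5 in WT, 133 in 1SA and 182 in 2SA. It was higher than WT in both mutants, by 0.91 and 1.15, and took places 127 and 105 from the highest of 13626 genes. Among the formins, Diaph3, which encodes mDia2 and is known for the contractile ring of dividing cells, followed the same course. It measured 59.8 in WT, 113 in 1SA and 129 in 2SA, with differences of 0.99 and 0.97 and places 103 and 166. From 1SA to 2SA, Diaph3 differed by -0.02, within the error between spots, and Iqgap3 by 0.24, a little past it.

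The other diaphanous formins did not move with Diaph3. Diaph1, the RhoA-driven form, gave a difference of 0.04 in 1SA and -0.02 in 2SA, and Diaph2 gave 0.17 and 0.10. Both Iqgap3 and Diaph3 are dim on these arrays. After normexp correction Iqgap3 was at 0.59 and 0.76 and Diaph3 at 0.61 and 0.49, so that Diaph3 in 2SA no longer reached 1.5-fold.

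Markers of dividing cells were higher in the same arrays. Of 15 listed genes, 14 were measured on all arrays, and all 14 were higher than WT in both mutants. Their medians were 0.82 in 1SA and 0.89 in 2SA. The list was drawn up with earlier results of these data known. It holds Ect2, the highest in 2SA at 1.69, which the study had picked from genes raised in livers with active YAP. Every gene of the list that an alternative processing kept was also higher in both mutants there. Aurkb was not measured on all arrays. Mki67, the source of the Ki67 antigen, measured 624 in WT, 1026 in 1SA and 1034 in 2SA. The summed scaled intensity of the list was 22.5 in WT, 36.6 in 1SA and 34.1 in 2SA. The part of dividing cells in the values of Iqgap3 and Diaph3 was not tested.

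**Figure D3:**
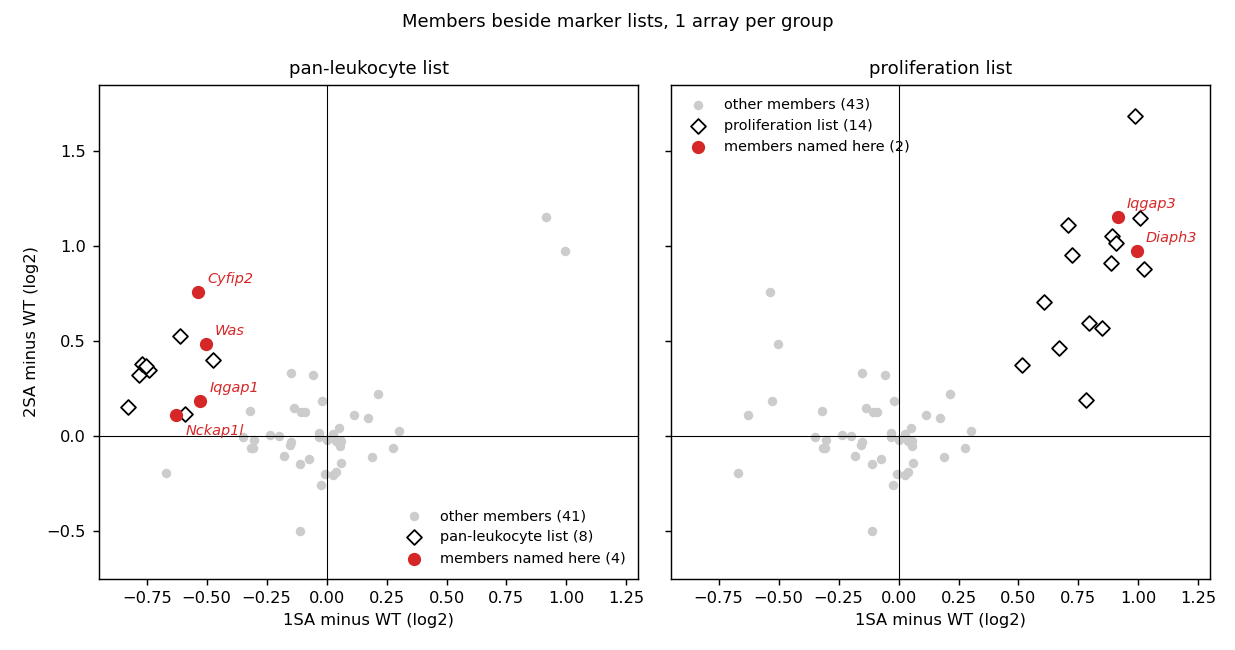
Difference from WT in 1SA (horizontal axis, log2) against that in 2SA (vertical axis, log2) for members (filled) and marker genes (open diamonds), 1 array per group. Was, Nckap1l, Cyfip2 and Iqgap1 lie below 0 in 1SA and above 0 in 2SA, as do the 8 pan-leukocyte genes. In 2SA, Cyfip2 lies above the range of those genes, and Nckap1l and Iqgap1 lie within the error between spots. These 4 are the members 1.5-fold or more higher in 2SA than in 1SA, so their place follows in part from that choice. The same order held for 14 of the 45 members, the rest of them drawn in grey. Iqgap3 and Diaph3 lie among the 14 proliferation genes, above 0 in both mutants.

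The promoters of Iqgap3 and Diaph3 share a run of 11 bases close to the start, GGCGGGAGATT, which begins at position -28 in Iqgap3 and -14 in Diaph3. The first 7 letters, GGCGGGA, resemble sites of E2F factors, which drive genes of the cell cycle, and are in capitals in both sequences. In Iqgap3 the capitals TTCAAA are the reverse complement of TTTGAA, the core of the CHR element found in genes of mitosis, and they overlap the end of the shared run. Each sequence is 150 bases before the start on the gene's strand, from RefSeq on GRCm38.p6, Iqgap3 at chr3:88081901-88082050 on the plus strand and Diaph3 at chr14:87141225-87141374 on the minus strand.
Iqgap3: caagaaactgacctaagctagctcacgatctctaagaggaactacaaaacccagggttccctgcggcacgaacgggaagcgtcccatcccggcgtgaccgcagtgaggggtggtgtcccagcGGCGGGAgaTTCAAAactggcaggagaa
Diaph3: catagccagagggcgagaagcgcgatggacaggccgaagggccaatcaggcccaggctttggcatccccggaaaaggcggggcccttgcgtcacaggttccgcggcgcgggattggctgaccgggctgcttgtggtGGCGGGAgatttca

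The run was looked for after both sequences had been seen. It stood in 11 of 27025 promoters (0.0407%), of which 9 belonged to measured genes. The 7 others lay between -0.21 and 0.26 in 1SA and between -0.14 and 0.32 in 2SA. GGCGGGA alone stood in 11.0% of promoters and in 10 of 39 members (25.6%), among them Iqgap1, Iqgap2, Wasl and Arpc1b. TTTGAA stood in 18.3% of promoters and in 9 of 39 members (23.1%). The TEAD core GGAATG, the letters bound by the partners of YAP, stood in 14.4% of promoters and in 5 of 39 members (12.8%), Arpc2, Cdc42ep1, Cdc42ep4, Cdc42ep5 and Wasf1. Against WT, these 5 genes lay between -0.20 and 0.15 in both mutants.

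Of the direct CDC42 partners, the Borg proteins (Cdc42ep1 to Cdc42ep5) link CDC42 to septins. Cdc42ep3 measured 86.5 in WT, 51.5 in 1SA and 82.9 in 2SA. It was lower than WT in 1SA by -0.67 and in 2SA by -0.20. The value in 1SA was -0.29 after normexp correction. The other 4 Borg genes lay between -0.32 and 0.13 against WT, with Cdc42ep2 the lowest in 1SA.

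The MRCK kinases, which drive myosin under CDC42, and the small SPEC proteins lay between -0.15 and 0.33 against WT, with Cdc42se2 the highest in 2SA. Cdc42bpa had 4 probes, and its brightest measured 289 in WT, 333 in 1SA and 305 in 2SA. The 4 probes gave -0.09 to 0.65 in 1SA, with the 0.65 from a dim probe of 22.1, 32.9 and 23.6, so the direction of Cdc42bpa in 1SA hung on the probe. Fmnl2 had a second, dim probe of 16.7, 25.5 and 18.2, which gave 0.68 in 1SA and -0.02 in 2SA, against 0.22 and 0.22 for its brightest. Between the mutants the Fmnl2 probes gave -0.70 and 0.0060. Which transcripts these probes bind was not examined.

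**Figure D4:**
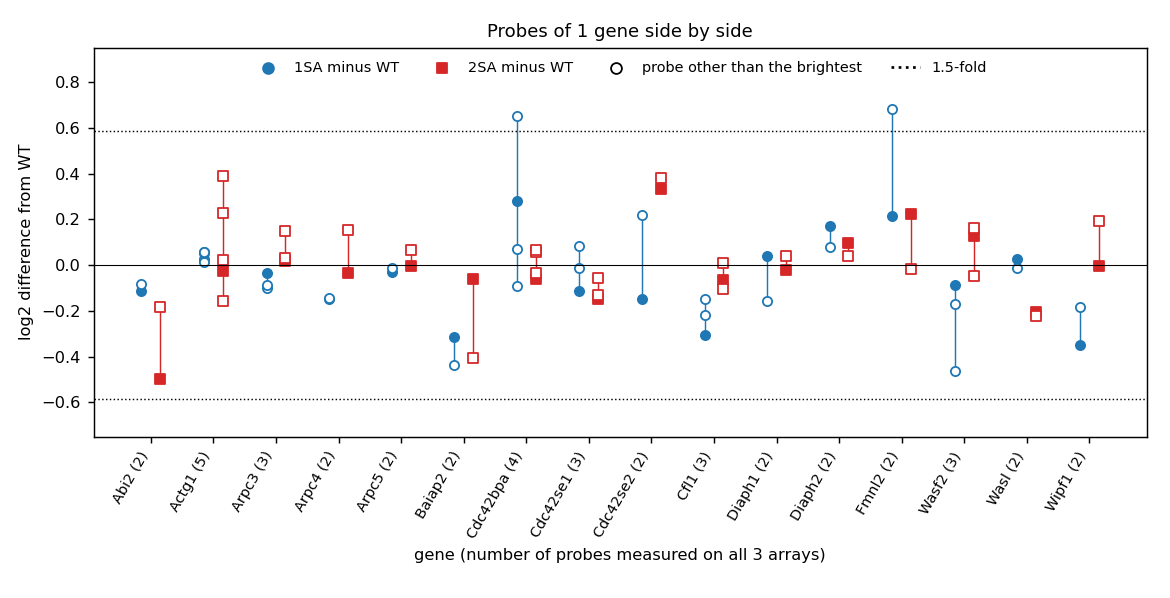
Log2 difference from WT (vertical axis) for every probe measured on all 3 arrays of the 16 members with several probes (horizontal axis, number of probes in brackets), 1SA in blue circles, 2SA in red squares, the brightest probe filled and dotted lines at 1.5-fold. Probes of most genes lie close together, whereas 1 probe each of Cdc42bpa and Fmnl2 passes 1.5-fold in 1SA alone, and the 5 Actg1 probes spread from -0.16 to 0.39 in 2SA.

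The PAK kinases carry the signal from CDC42 and Rac to the LIM kinases. Pak1, Pak2 and Pak4 lay between -0.24 and 0.30 in 1SA and between 0.0033 and 0.19 in 2SA against WT. The only Pak4 probe measured 50622 in WT, 59160 in 1SA and 56725 in 2SA, with differences of 0.30 and 0.03. On every array it was brighter than the brightest Actg1 probe, and which transcripts it binds was not examined. Limk1 gave -0.20 and 0.0018, and Limk2 0.19 and -0.11. Cfl1, the cofilin they hold back, measured 17772 in WT, 13634 in 1SA and 18661 in 2SA, which gave -0.31 and -0.07. Trip10 (CIP4), a membrane-bending partner of CDC42, gave -0.02 and -0.26.

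Actb and Actg1 encode the actins of non-muscle cells. Actb measured 114885 in WT, 104862 in 1SA and 157545 in 2SA, with differences from WT of -0.05 and 0.32. Under quantile normalisation the 2SA value was 0.44 and the gap between the mutants went from 0.37 to 0.60, past 1.5-fold. The brightest of 5 Actg1 probes measured 47645 in WT, 47022 in 1SA and 51357 in 2SA, which gave 0.06 and -0.03. The 5 probes agreed in 1SA, from 0.01 to 0.06, and spread from -0.16 to 0.39 in 2SA, and the mean of all 5 was 0.09 in 2SA, so the sign of Actg1 in 2SA hung on the probe. Actin genes resemble each other closely in coding sequence and have processed copies, and which of them each probe binds was not examined.

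The Actg1 promoter is shown because it holds a CArG box, the element of serum response factor, which reads the actin balance of the cell. The box is in capitals at positions -90 to -81 of chr11:120348496-120348645 on the minus strand of GRCm38.p6, from RefSeq. CArG boxes, which read the same on both strands, stood in 1.62% of all promoters and in 3 of 39 members, Actg1, Arpc4 and Trip10.
Actg1: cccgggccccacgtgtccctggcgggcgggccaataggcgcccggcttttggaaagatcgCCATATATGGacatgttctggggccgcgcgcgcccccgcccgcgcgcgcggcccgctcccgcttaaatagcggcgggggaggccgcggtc

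Around the set, 90 further genes of the same machinery were listed by role, again with earlier results known. Of these, 84 were measured on all arrays. In 1SA against WT, 1 was higher by 1.5-fold (1.19%, all genes 3.08%) and 9 were lower (10.7%, all genes 4.67%). In 2SA against WT, 3 were higher and 3 lower (3.57% each, all genes 3.79% and 3.02%). In 2SA against 1SA, 17 were higher (20.2%, all genes 6.99%) and 5 lower (5.95%, all genes 4.56%). After normexp correction the 9 lower in 1SA became 6, and between the mutants 15 were higher and 0 lower. Their medians were -0.09, 0.05 and 0.17 in the same order. Of the 12 GTPases, 7 lay within the error between spots in 1SA and 11 in 2SA against WT. Cdc42 gave -0.08 in 1SA and 0.14 in 2SA, and Rhoa, which opposes Rac at the cell rear, -0.02 and -0.05. The values in 1SA ran from -0.63 for Rhoc to 0.32 for Rnd3.

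Coro1a, a coronin of blood cells that sits on Arp2/3 networks, measured 1543 in WT, 838 in 1SA and 3315 in 2SA. Its differences from WT were -0.80 and 0.97 and the mutants were 1.77 apart, in the order of the pan-leukocyte genes. Hcls1, a blood cell cortactin, gave -0.37 and 0.44 and Abi3, a further WAVE adaptor, -0.52 and 0.19. Lcp1, the plastin of blood cells, departed from that order, with 0.0044 and 0.01. These last 3 genes were picked after their values were seen.

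The muscle-type actins were lower in 1SA. Acta2, the actin of smooth muscle and activated stellate cells, measured 1121 in WT, 442 in 1SA and 865 in 2SA, a difference of -1.27 and -0.51. Actg2, a smooth muscle actin of the gut wall, measured 138, 24.9 and 78.8, which gave -2.40 and -0.94. Fhod3, a formin known from heart muscle, measured 95.0 in WT, 38.7 in 1SA and 122 in 2SA, a difference of -1.22 and 0.23. Pdxp (chronophin), a phosphatase that frees cofilin, measured 73.9, 40.7 and 22.1 and was lower in both mutants, by -0.78 and -1.88. Its 2SA value was -1.09 from that in 1SA, a gap that fell under 1.5-fold after normexp correction. Actg2, Fhod3 and Pdxp are dim on these arrays, so the sizes of their differences are uncertain. Stellate and fibroblast markers, of which 8 of 9 were measured and Acta2 is 1, had medians of -0.25 in 1SA and -0.54 in 2SA, and their part in the actin values was not tested.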

How the data were processed

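Total RNA of mouse liver was labelled with Cy3 and hybridised to SurePrint G3 mouse arrays, 1 array for each of WT, 1SA and 2SA, all on 1 slide. Per the file headers, the authors made the deposited intensity of each spot with Feature Extraction 10.10.1.1, which subtracted background, and did not scale it between arrays. The probes were designed on build mm9. The series matrix held the same intensity times 1 constant per array (3.02, 3.08 and 2.81). Its source is not given in the sources used here, and the matrix was used as an alternative only.

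Control spots and spots marked non-uniform or population outlier were left out (181, 148 and 182 spots in WT, 1SA and 2SA). Saturation affected 0 spots. Spots of a probe were averaged on the log2 scale and each array's 75th percentile was subtracted. A probe counted as measured where 50% or more of its spots were well above background, which held for 28972, 29705 and 30784 of 55681 probes. RefSeq accessions, without version, named 26762 probes through a GRCm38.p6 gene table used for names and promoters only. A gene was read from its brightest probe measured on all 3 arrays, and 13626 genes entered each comparison. For a bound, the dim side was taken as the dim value or the array's lowest measured signal (12.5, 10.3 and 5.94), whichever was greater.

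The members and lists were chosen with earlier results of these data known. Values on every array were given for members at 1.5-fold or more in any comparison, with a bound, with probes of opposite sign past 1.5-fold, the 5 of highest signal, and the actins. Other pathway genes were named at 2-fold, with Cdc42, Rac1, Rac2 and Rhoa. No test was run, since each group held 1 array. Alternatives were scaling to the array median, quantile normalisation, normexp (offset 50, on median spot and background signals), the series matrix, no filter and a stricter filter on dim probes, marked spots kept, and the mean of a gene's probes. Computations used Python 3.11.15, pandas 2.3.3, numpy 2.4.6, matplotlib 3.10.9, R 4.3.3 and limma 3.58.1, and the steps were tested on simulated data.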

Additional observations from a re-analysis of the deposited data

Results flagged for a closer look

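Cyfip2 and Was lay on opposite sides of WT in the mutants, each beyond the error between spots of 0.20. For both, the mutants were at least 1.5-fold apart. The limit of 0.20 rests on the median SD of repeated probes. Cyfip2 and Was had 1 spot per array, so their own error between spots was not measured. Against WT, Cyfip2 was at -0.54 in 1SA and at 0.76 in 2SA, a gap of 1.29 between the mutants. Was was at -0.50 in 1SA and at 0.49 in 2SA, a gap of 0.99, which normexp correction took to 0.71. Each value comes from 1 array per group and the differences were not tested. The 8 pan-leukocyte genes had the same signs (medians -0.75 and 0.36).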

How the results depend on the processing

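No named member's value of 1.5-fold or more changed sign under any alternative. The median over members ran from -0.08 to -0.02 in 1SA against WT and from 0.03 to 0.12 between the mutants. In 2SA against WT it lay at -0.0037 to 0.03, above 0 in 5 alternatives. Counts were taken as moved past 1.5 times, which held for 13. Within that limit, the members 1.5-fold higher in 2SA than 1SA were 5 with quantile normalisation, where Actb joined, 5 without a filter and 3 under the stricter one, and those higher in 2SA than WT were 4 without a filter. Scaling to the array median or quantile normalisation put 1 member (Diaph3) at 2-fold higher in 1SA than WT, in place of 0. Normexp left 0 members 1.5-fold lower in 1SA than WT, 1 member 1.5-fold higher in 2SA than WT, and 0 members 2-fold higher in 2SA than in WT or than in 1SA. The stricter filter kept 33 members and removed Iqgap3, Diaph3, Cyfip2 and Cdc42ep3, which left 0 members 1.5-fold higher and 1 lower in 1SA than WT, 0 at 1.5-fold and 0 at 2-fold higher in 2SA than WT, and 0 at 2-fold higher in 2SA than 1SA. With no filter, Fmnl1 entered and 2 members were 2-fold higher in 2SA than WT and 2 than 1SA. The scaling alternatives moved the median of all genes by at most 0.03. No paired analysis was possible because 1 array stood for each form, and leaving out an array would leave no comparison. Dim members carry the least certain values: normexp took Cyfip2 to 0.64 between the mutants, Iqgap3 to 0.59 and 0.76, Diaph3 to 0.61 and 0.49, Was in 1SA to -0.29 and Cdc42ep3 to -0.29.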

Other observations

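Genes that cap, bundle or buffer actin were also followed. Tmsb4x and Tmsb10, thymosins that hold actin monomers, differed from WT by -0.49 and -0.70 in 1SA and by 0.06 and 0.18 in 2SA. Gsn, the filament-cutting gelsolin, gave -0.49 and 0.15, and Evl, an Ena/VASP protein that speeds filament growth, -0.58 and 0.02. Myl9, the light chain of smooth muscle myosin, gave -0.74 and -0.42. Rhoc, a relative of Rhoa, gave -0.63 in 1SA and 0.03 in 2SA. These genes were picked after their values were seen.

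Enah, an Ena/VASP protein at the tips of protrusions, was well above background in 2SA only. Its brighter probe measured 4.96 in WT, 3.04 in 1SA and 75.7 in 2SA, at least 5.51-fold higher than WT and at least 6.36-fold higher than 1SA. A second probe measured 6.95, 4.62 and 14.6, at least 1.06-fold and 1.23-fold higher. The probes thus gave bounds of unlike size, each from 1 array.

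The remaining cell type lists gave these medians against WT. Sinusoidal endothelial markers were at -0.11 in both mutants over 9 genes. Bile duct markers were at -0.73 in 1SA (-0.18 after normexp correction) and -0.06 in 2SA over 7. Between the mutants 6 of these 7 were higher in 2SA, with a median of 0.74 before that correction. Red cell markers were at 0.43 and 0.09 over the 3 of 6 that were measured on all arrays. Spp1 is on both the bile duct list and that of monocytes and infiltrating macrophages. At -1.73 it was the lowest gene of each in 1SA.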
